A study of Mus musculus with 6 samples.

Results

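The genes Cxcl12, Cxcr4, Ackr3, Kit and Kitl, ligands and receptors of a pair of guidance systems of the embryo, were followed in the cranial mesoderm and the cranial neural crest of the mouse. They were chosen by name, as every probe that the platform annotation assigns to one of these 5 symbols, which gave 13 of the 45281 probes and 5 of the 19057 named genes on the array. Heads of embryos of embryonic day 9.5 were sorted for GFP. Mesoderm is the GFP-positive fraction of the cross Mesp1-Cre x Z/EG, crest that of the cross Wnt1-Cre x Z/EG, and both were on a mixed background (C57Bl/6 x 129 x ARC/s). Both groups therefore carry a Cre transgene or allele and the Z/EG reporter, which switches GFP on in every cell that has had Cre activity and in its descendants. A sorted fraction is thus defined by ancestry: Mesp1-Cre also marks the endothelium that comes from mesoderm, and Wnt1-Cre also marks the dorsal neural tube and midbrain. Each group had 3 replicates, isolated independently per the series design, with no statement of litter, day or number of embryos. P-values therefore measure the spread between these samples, part of which may be technical. The 6 arrays share 1 BeadChip on which mesoderm takes the end and crest the beginning, and chip position and cell type cannot be told apart.

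CXCL12 is a secreted chemokine that draws cells up its gradient through the G protein-coupled receptor CXCR4, while ACKR3, an atypical receptor, takes the ligand up and clears it. KIT is a receptor tyrosine kinase of class III and KITL, or stem cell factor, its ligand, made in a membrane-bound and a shed form. Both systems steer migrating and circulating cells: CXCL12 and CXCR4 act on blood progenitors, germ cells, endothelium and crest cells, and KITL and KIT on pigment cell precursors, germ cells, mast cells and blood progenitors.

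The RNA of Cxcl12, Cxcr4 and Kit could be measured on these arrays, and their promoters are shown here for that reason. RefSeq (mouse build GRCm38.p6) gave a promoter for 5 of 5 genes. The stretches are the 250 bases before the annotated start, read 5′ to 3′ on the gene's own strand. Cxcl12 is at chr6:117168285-117168534 on the plus strand, Cxcr4 at chr1:128592300-128592549 on the minus strand, and Kit at chr5:75574737-75574986 on the plus strand, before the first of its 2 annotated starts. Capitals mark the GC box GGGCGG, which the SP1 family binds, and the TATA box TATAAA, each on either strand and with overlaps kept.
Cxcl12: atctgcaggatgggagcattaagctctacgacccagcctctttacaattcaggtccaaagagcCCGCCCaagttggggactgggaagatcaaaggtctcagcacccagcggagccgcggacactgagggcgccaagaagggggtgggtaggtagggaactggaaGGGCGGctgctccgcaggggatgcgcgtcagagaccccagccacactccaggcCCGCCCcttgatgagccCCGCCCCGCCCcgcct
Cxcr4: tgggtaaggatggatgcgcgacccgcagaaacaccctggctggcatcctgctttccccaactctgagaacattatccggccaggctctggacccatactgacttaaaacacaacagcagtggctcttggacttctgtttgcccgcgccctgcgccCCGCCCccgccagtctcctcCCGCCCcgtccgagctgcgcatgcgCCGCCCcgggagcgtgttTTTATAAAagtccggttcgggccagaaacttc
Kit: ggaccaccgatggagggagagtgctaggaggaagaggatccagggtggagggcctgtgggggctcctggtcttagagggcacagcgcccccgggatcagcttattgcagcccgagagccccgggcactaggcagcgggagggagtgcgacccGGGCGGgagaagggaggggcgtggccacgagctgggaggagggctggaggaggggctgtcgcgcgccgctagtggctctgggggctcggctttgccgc
The GC box was found in 5 of 5 promoters, against 32.7% of the 32851 RefSeq promoter stretches of the same length: 5 times for Cxcl12, 3 times for Cxcr4, once for Ackr3, once for Kit and 3 times for Kitl. The 2 most downstream copies of Cxcl12 overlap. The TATA box was found in 3 of 5, Cxcr4, Ackr3 and Kitl, against 12.4% of all stretches. It began 30 and 32 bases before the start in Cxcr4 (on both strands, overlapping), 25 in Kitl and 8 in Ackr3. The E-box CANNTG, the core to which basic helix-loop-helix factors such as TWIST1 bind, was in 0 of 5 of these stretches, against 66.2% of all. With the 50 bases after the start included it was in 3 of 5 (Ackr3, Kit and Kitl), against 72.3%. These are matches of letters in a short window and describe the sequences only.

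Across the arrays, 30.84% to 34.11% of probes were detected, meaning that the signal had a detection p-value under 0.05 against the negative controls of that array, and median raw signals were 99.83 to 131 intensity units. Arrays of one group correlated across probes at 0.9705 to 0.9813 (mesoderm) and 0.9784 to 0.9909 (crest), and arrays of different groups at 0.9267 to 0.9635, with probes not being independent replicates. Markers went with the labels: Sox10, a crest factor, averaged a log2 level of 6.72 in mesoderm and 11.66 in crest, Wnt1 was detected on 0 mesoderm and 3 crest arrays, and the head mesoderm factor Tbx1 on 3 mesoderm and 0 crest arrays. Mesp1, which is switched off early in mesoderm, was detected on 0 arrays of either group. A gene was tested where a probe was detected on at least 3 of the 6 arrays, and it was read from its brightest such probe. Of the 5 genes, 3 were tested (Cxcl12, Cxcr4 and Kit), as were 9214 genes or 48.3% of the array, while Ackr3 and Kitl were not. Below, a raw signal is in intensity units and a level is a log2 value after background correction and quantile normalization. The lowest detected level lay between 5.17 and 5.35 on each array. Differences are mesoderm minus crest.

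Of the 3 tested genes, 1 was higher in mesoderm (Cxcl12), 1 was higher in crest (Cxcr4), and 1 did not pass the test (Kit). For comparison, 18.5% of all genes tested passed, 10.1% toward mesoderm and 8.31% toward crest (limma, two-sided, Benjamini-Hochberg adjusted p under 0.05). In all 3 genes the levels of mesoderm and crest arrays did not overlap, as in 37.2% of all genes tested. In sorted bulk RNA, a smaller share of expressing cells and less RNA per cell cannot be told apart, which holds for every value below.

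Cxcl12, the ligand, gave the brightest signals. Its probe ILMN_2658908 read 1483.9, 4977.7 and 2047.8 in mesoderm replicates 1, 2 and 3, against 854, 416.9 and 681 in crest replicates 1, 2 and 3, and was detected on all 6 arrays. Every mesoderm array lay above every crest array, with the second replicate highest in mesoderm and lowest in crest. The mean level was 11.40 ± 0.40 in mesoderm and 8.78 ± 0.97 in crest (SD, n = 3 each). The difference was 2.62 ± 0.46 (SE), or 6.16-fold higher in mesoderm with a 95% confidence interval of 3.00 to 12.7 (limma, adjusted p = 0.00481). The transcript was thus present in both fractions and higher in mesoderm.

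Cxcl12 had 2 further probes that were detected on at least 3 arrays. Probe ILMN_3158250 read 197.2, 361.2 and 173.8 in mesoderm, against 158.1, 147.9 and 118.8 in crest, and was detected on 3 mesoderm arrays and 1 crest array. It too was higher on every mesoderm array, by 1.99 ± 0.31 on the log2 scale (limma over 13057 probes, adjusted p = 0.00307, where 16.2% of probes passed, 8.74% toward mesoderm). Probe ILMN_2737302 read 115, 208.1 and 236.7 in mesoderm, against 136.2, 133.2 and 125.3 in crest, again detected on 3 mesoderm arrays and 1 crest array. Its raw signals overlapped between the groups, its levels did not (5.55, 6.21 and 7.58 in mesoderm, against 5.17, 4.82 and 5.33 in crest), and its difference of 1.34 ± 0.46 did not pass (adjusted p = 0.0858). All 3 probes had the same direction, with levels that did not overlap between the groups, as in 35.9% of all probes tested. The 2 further probes reached 3 detected arrays through mesoderm. Their direction was thus bound up with the detection filter and is no separate support. The other 2 probes of Cxcl12 were at background throughout, with signals of 88.8 to 119.3.

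The size depends on the probe. The mean of its 3 detected probes differed by 1.98, a 3.96-fold change that still passed. In the deposited table, detection p-values of many genes with several probes stand beside another probe of the same gene, and taking them as they stand made ILMN_2737302 the probe read, with 1.34 and an adjusted p of 0.139.

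Cxcr4, the signalling receptor of CXCL12, went the other way. Its 1 probe, ILMN_2630459, read 95.5, 157.1 and 110.6 in mesoderm, against 237.9, 200.6 and 154.9 in crest. It was detected on 3 crest arrays, through which it entered the test, but in mesoderm only on replicate 2. Its call was thus bound up with the detection filter. Mesoderm replicate 2 read just above the lowest crest signal, so that raw signals overlapped. The levels did not: 4.58, 5.28 and 4.80 in mesoderm, against 6.90, 6.06 and 6.24 in crest. Mean levels were 4.89 ± 0.36 in mesoderm and 6.40 ± 0.44 in crest (SD, n = 3 each), a difference of -1.51 ± 0.30, or 2.85-fold higher in crest with a 95% confidence interval of 1.79 to 4.56 (limma, adjusted p = 0.00849). The size rests on the treatment of low signals, since mesoderm stood at background on 2 arrays: without background correction the difference was -0.61, or 1.52-fold, and still passed (adjusted p = 0.0403). The receptor RNA was thus detectable in crest, at signals close to background, while the ligand RNA was higher in mesoderm.

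Ackr3, the clearing receptor, was not detected on any of the 6 arrays. Its 1 probe read 95.9, 138.9 and 106.1 in mesoderm, against 120.6, 124.6 and 100.6 in crest, with detection p-values of 0.15 to 0.598. The groups overlapped and no fold is given, since both were at background. A low level of Ackr3 in either fraction was not detectable at this signal over background.

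Kit, the receptor of stem cell factor, had higher levels on all crest arrays, but the difference did not pass. Probe ILMN_1246876 was detected on all 6 arrays and read 148.6, 255.2 and 149.6 in mesoderm, against 250, 696.8 and 241.4 in crest. Raw signals overlapped, as mesoderm replicate 2 read slightly above crest replicates 1 and 3, and crest replicate 2 stood far above the other 5 arrays. Levels were 6.74, 6.75 and 6.25 in mesoderm, against 7.01, 8.58 and 7.41 in crest, and did not overlap. The means were 6.58 ± 0.29 in mesoderm and 7.66 ± 0.82 in crest (SD, n = 3 each). The difference was -1.08 ± 0.39, or 2.12-fold toward crest with a 95% confidence interval of 1.14 to 3.93, an interval that takes no account of the number of genes tested (limma, adjusted p = 0.0915). The call depends on single crest arrays: without crest replicate 1 it was -1.41 and passed (adjusted p = 0.0479), and without crest replicate 2 it was -0.62. With the deposited detection p-values another Kit probe, ILMN_1216898, was read, with a difference of -0.03 between levels at background. The 2 further Kit probes were not detected on any array, with signals of 96.2 to 126.6.

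Kitl, the ligand of KIT, was not detected by any of its 3 probes. Probe ILMN_2751988, the brightest, read 94.3, 144.3 and 102.8 in mesoderm, against 108.7, 128.2 and 112.4 in crest, and the groups overlapped. Over all 3 probes, signals ran from 90.7 to 144.3 and detection p-values from 0.108 to 0.868. Kit RNA was therefore measured without a measurable level of its ligand in either fraction.

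**Figure D1:**
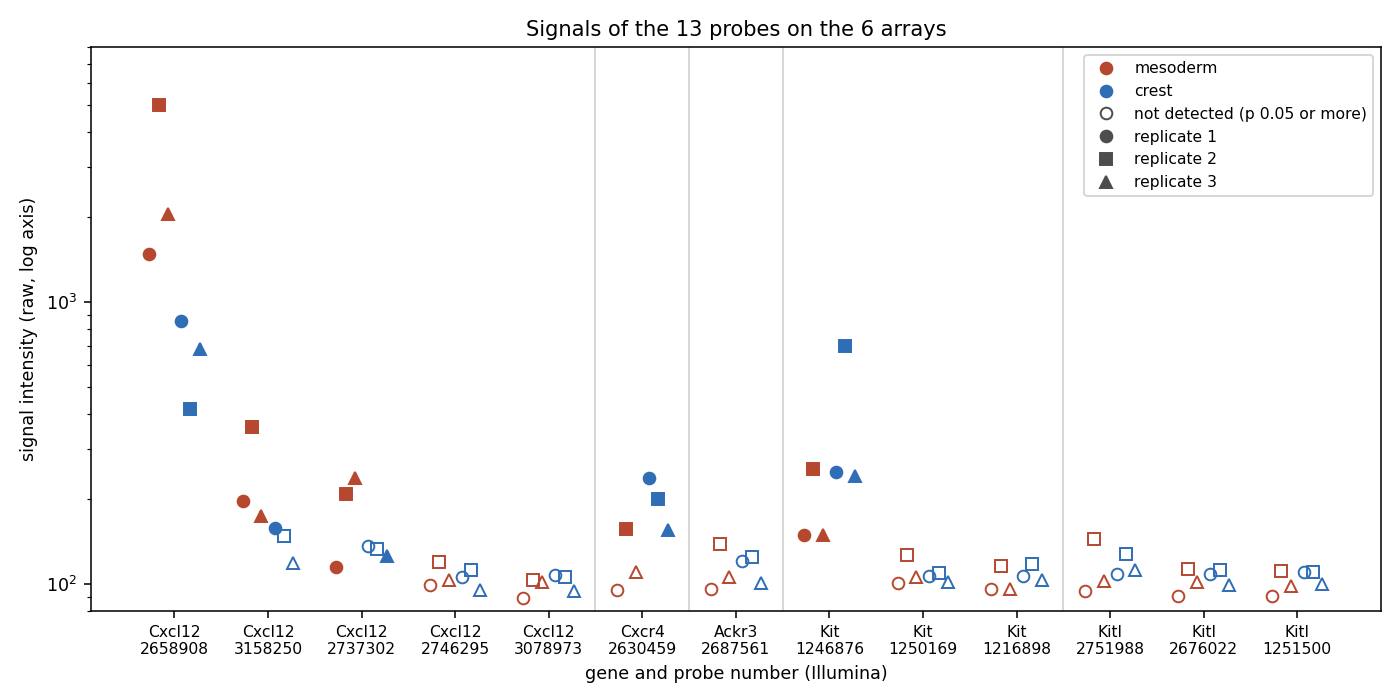
Raw signal intensity (log axis) of each of the 13 probes of Cxcl12, Cxcr4, Ackr3, Kit and Kitl on the 6 arrays, with mesoderm in red and crest in blue, marker shapes for replicates and open markers where the probe was not detected. Filled markers stand for the 3 brightest Cxcl12 probes, the Cxcr4 probe and 1 Kit probe, and the other 8 probes are open throughout.

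**Figure D2:**
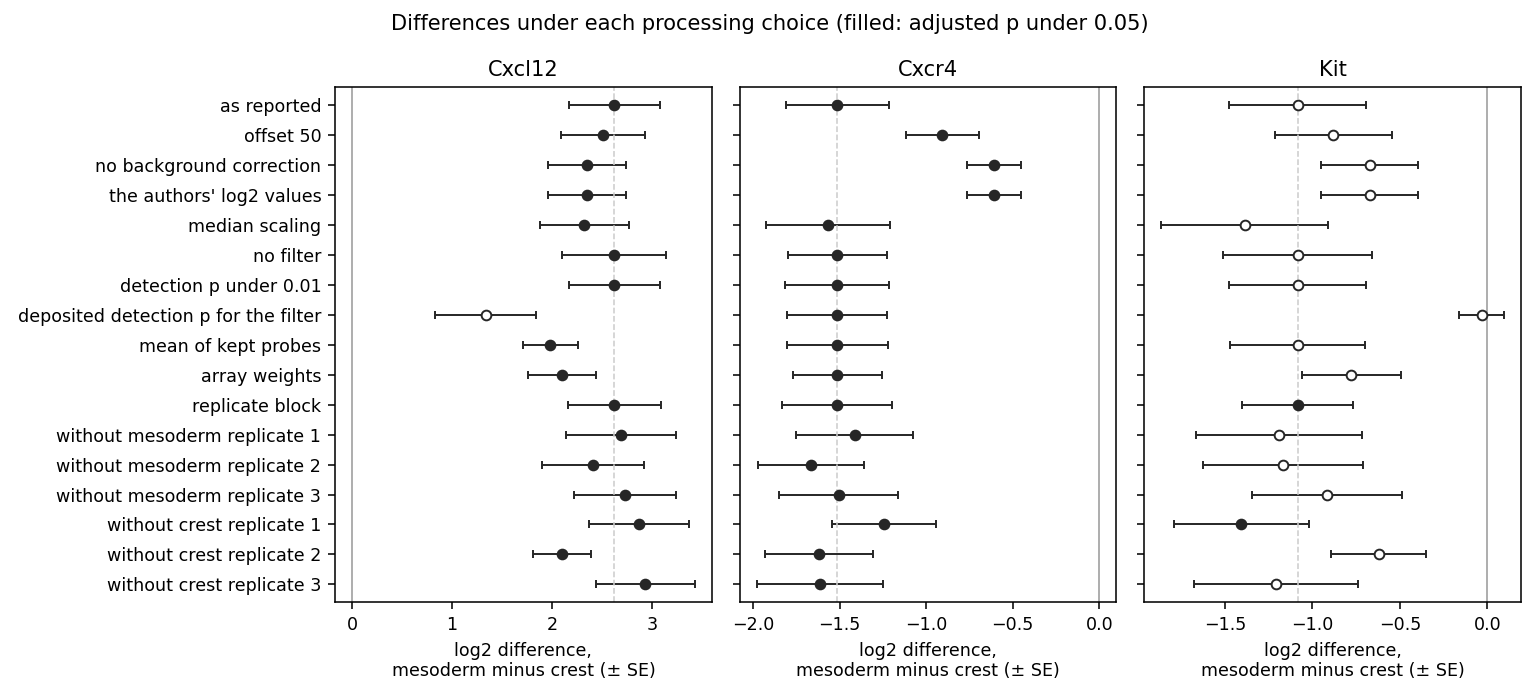
Log2 difference, mesoderm minus crest, of Cxcl12, Cxcr4 and Kit with its standard error, as reported and under other processing choices (single arrays left out with filter and probes renewed), filled where the adjusted p was under 0.05. Cxcl12 lies right of 0 and Cxcr4 left of 0 in every row drawn, and Kit is filled in 2 of these rows.

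For each tested gene, the 3 genes with the most similar profile were taken as those with the smallest root mean square difference of log2 levels over the 6 arrays, after each gene's own mean was subtracted. For Cxcl12 these were Pdlim2 (0.311), Timp1 (0.316) and Ntng1 (0.318), and 0 genes came within 0.3. Timp1, an inhibitor of matrix metalloproteinases, had levels of 10.86, 10.94 and 10.77 in mesoderm, against 8.61, 7.62 and 8.51 in crest, with the same low second crest replicate as Cxcl12. For Cxcr4 the closest were Xntrpc (0.173), the neural RNA-binding protein gene Msi1 (0.177) and Adam23 (0.178), and 35 genes came within 0.3. For Kit they were Pdha1, a subunit of pyruvate dehydrogenase (0.146), the DNA topoisomerase gene Top2a (0.151) and AI597479 (0.157), and 112 genes came within 0.3. Top2a, a gene of dividing cells, had levels of 7.43, 7.18 and 7.05 in mesoderm, against 7.50, 8.98 and 8.10 in crest, again with the second crest replicate highest.

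The genes that act with the 5 were read from 8 lists: chemokine ligands and receptors, the coupling and migration machinery of CXCL12 signalling, the effectors and brakes of KIT, the receptors related to KIT, and transcription factors linked to the 5 genes. The lists held 196 genes on the array, of which 99 were tested, 27 were higher in mesoderm and 5 higher in crest. The median difference was 0.315, beside -0.071 over all genes tested, and 32.3% of those tested passed. Of these genes, 12 of the 27 were detected on no crest array and 1 of the 5 on no mesoderm array. Such a gene entered the test only through the group where it is high, so its call was bound up with the detection filter. Among the 86 genes of the lists detected in both groups, meaning on at least 1 array of each, 15 were higher in mesoderm and 4 in crest. That is 22.1%, beside 15.3% of the 8782 genes of the whole array detected in both groups. Some of the 86, such as Jak3 and Foxc2 (3 mesoderm arrays and 1 crest array each), still met the filter through mesoderm. The lists were also chosen with earlier results of these data known. These shares and the counts per list are descriptions for both reasons. Over all genes tested, 18.5% passed, 10.1% toward mesoderm and 8.31% toward crest. With 1 mesoderm array left out and the filter renewed, a gene undetected in crest leaves the test by construction.

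Among the other chemokine ligands, 4 of 34 on the array were tested, of which 2 were more abundant in mesoderm and 0 in crest, with a median of 0.93. Both that passed are platelet chemokines that were detected on no crest array, and 0 of the other 2 passed. The count was 0 with any mesoderm array left out and the filter renewed. Pf4 had levels of 12.31, 11.97 and 12.71 in mesoderm, against 4.47, 4.47 and 4.49 in crest, where no array detected it. The mesoderm level was at least 138-fold that of crest (limma, adjusted p = 6.219e-07), where "at least" sets the mesoderm mean against the lowest detected level of the crest arrays. For Ppbp the bound was 2.26-fold (adjusted p = 0.00195). With genes at their bounds, the median of this list was 0.55.

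Of the other chemokine receptors, 4 of 20 were tested, of which 3 had more RNA in mesoderm and 0 in crest, with a median of 1.72 (1.56 with bounds). Cx3cr1, the fractalkine receptor of macrophages, was at least 6.05-fold higher in mesoderm, with levels of 7.36, 7.63 and 8.47. It and Ackr2 were detected on no crest array, and the count was 1 with any mesoderm array left out and the filter renewed. Ackr1 and Ackr2, which like Ackr3 bind chemokines without G protein signalling, were both higher in mesoderm, Ackr1 by 2.32 ± 0.41 (adjusted p = 0.00497) and Ackr2 at least 1.73-fold (adjusted p = 0.0155). Ackr1 read 8.64, 8.01 and 7.13 in mesoderm, against 5.13, 5.55 and 6.13 in crest. The Ackr2 call was lost without crest replicate 2 (adjusted p = 0.0558), without crest replicate 3 (0.0765), with median scaling (0.0744) and without background correction or with the authors' log2 values (0.0694 each). With the filter renewed, Ackr2 was not tested when any mesoderm array was left out.

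Among genes that couple CXCR4 to G proteins or take it in, 20 of 30 were tested, of which 3 had more RNA in mesoderm (1 without crest replicate 3, and 2 without mesoderm replicate 1 or 3 or crest replicate 1 or 2, with the filter renewed) and 1 in crest, with a median of 0.38. The share that passed was 20%, beside 18.5% of all genes tested (15.3% of those detected in both groups). The 1 higher in crest was Rgs16, which shortens G protein signals by speeding GTP hydrolysis. Rgs16 had levels of 6.35, 6.63 and 6.47 in mesoderm, against 9.18, 9.94 and 9.53 in crest, a difference of -3.07 ± 0.25 (adjusted p = 6.829e-05). Those higher in mesoderm were G protein subunits: Gng12 by 1.50 ± 0.28, Gnai2, the inhibitory alpha subunit, by 1.10 ± 0.26, and Gnb4 by 0.99 ± 0.21. With median scaling between arrays none of these 3 subunits passed (adjusted p of 0.0557, 0.0831 and 0.243). Gnai2 also missed the threshold without mesoderm replicate 1 or 3 or crest replicate 2 or 3 (adjusted p of 0.0553 to 0.0936), and Gnb4 without crest replicate 1 or 3 (0.0568 and 0.0779). The arrestin genes, whose products take CXCR4 and ACKR3 in, did not pass: Arrb2 differed by 0.82 (adjusted p = 0.0619) and Arrb1 by -0.31 (adjusted p = 0.406). Itch, the ubiquitin ligase that sends CXCR4 to lysosomes, differed by 0.91 (adjusted p = 0.18). Dpp4, the protease that cuts CXCL12, was detected on 1 mesoderm array and 0 crest arrays and was not tested.

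The machinery that moves a cell after CXCR4 is engaged had 23 of 30 genes tested, 6 higher in mesoderm and 0 in crest, with a median of 0.44. Of its 20 genes detected in both groups 15% passed, beside 15.3% of all such genes on the array. Renewing the filter left 1 gene higher in mesoderm when mesoderm replicate 1 was dropped, 3 for mesoderm replicate 2, 2 for mesoderm replicate 3, and 4 to 6 when a crest array was dropped. Of the 6, 3 were detected on no crest array and are genes of blood cells: Vav1, a signalling protein (at least 19.2-fold), Was, an activator of actin branching (at least 10.4-fold), and Rac2, a Rac GTPase (at least 1.91-fold). Vav1 had levels of 9.76, 8.22 and 10.46 in mesoderm, against 4.87, 4.92 and 4.90 in crest. Vav3, Jak3 and the Arp2/3 subunit gene Arpc2 were higher in mesoderm by 1.88 ± 0.26, 1.01 ± 0.22 and 0.95 ± 0.25. Jak3 was detected on 1 crest array only, so its difference was taken against levels at background. With the deposited detection p-values another Vav3 probe was read, with a difference of -0.05. Jak3 and Arpc2 depended on the setting: with median scaling their adjusted p was 0.0912 and 0.306. Jak3 missed the threshold without background correction (0.072) as well. With arrays left out, Jak3 missed the threshold without mesoderm replicate 1 or crest replicate 1 or 3 (0.0518 to 0.0639), and Arpc2 without any one array but crest replicate 1 (0.0546 to 0.147). Rac1, the Rac GTPase found in all cells, differed by -0.44 (adjusted p = 0.343), and Elmo1, which activates Rac with DOCK proteins, by 0.90 (adjusted p = 0.0587, and 0.0389 without mesoderm replicate 2).

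Downstream of KIT, 15 of 24 adaptors and effectors were tested, with 1 higher in mesoderm, 1 higher in crest and a median of 0.12. All 15 were detected in both groups. The share that passed was 13.3%, beside 15.3% of all genes detected in both groups and 18.5% of all genes tested. Stat3, a transcription factor that KIT can activate, was higher in mesoderm by 1.56 ± 0.31 (adjusted p = 0.00876), at 10.61, 9.65 and 9.89 in mesoderm, against 8.72, 8.10 and 8.65 in crest. Pik3r2, a regulatory subunit of phosphoinositide 3-kinase, was higher in crest, with a difference of -0.82 ± 0.22 (adjusted p = 0.0345). That call was lost without any one of mesoderm replicate 2 (adjusted p = 0.0790), crest replicate 1 (0.113) and crest replicate 3 (0.155). The related subunit gene Pik3r1 differed by 0.65 (adjusted p = 0.124), the adaptor gene Shc1 by 0.62 (0.115) and the kinase gene Src by -0.74 (0.14). Mitf, the pigment cell factor that acts with KIT, was detected on 0 arrays.

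The brakes on KIT and the proteins that control shedding of KITL held 13 tested genes of 22, 4 higher in mesoderm and 1 in crest, with a median of -0.08. Dok2, a docking protein of blood cells, was higher in mesoderm by 3.24 ± 0.36, at 9.21, 8.09 and 9.34 in mesoderm, against 5.99, 5.30 and 5.64 in crest. Ptpn6, the phosphatase SHP-1, which dephosphorylates KIT, was higher by 3.09 ± 0.33, at 9.41, 8.40 and 9.56 in mesoderm, against 6.04, 6.31 and 5.75 in crest. Kit itself had the lower levels in mesoderm, a difference that did not pass. Whether the same cells carry Kit and these 2 genes was not tested. Timp3, an inhibitor of metalloproteinases, and Mmp9, which frees soluble KITL in mouse bone marrow, were higher in mesoderm by 1.97 ± 0.34 and 1.64 ± 0.26. Adam17, a protease that sheds KITL, differed by -0.31 (adjusted p = 0.467). Socs6, which binds KIT and dampens it, was higher in crest, at -0.95 ± 0.27 (adjusted p = 0.0381), a call lost on leaving out any one array (adjusted p of 0.0554 to 0.108). Socs3 differed by -0.71 (adjusted p = 0.097).

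Of the receptors related to KIT and their ligands, 5 of 11 were tested, of which 2 had more RNA in mesoderm and 0 in crest, with a median of 0.58. Both were detected on no crest array, and 0 of the other 3 passed. The count was 0 with any mesoderm array left out and the filter renewed. Pdgfb, the ligand by which endothelium recruits mural cells, was at least 18.7-fold higher in mesoderm, with levels of 9.27, 9.30 and 9.76 there and no detection in crest. Csf1r, the receptor of macrophages, was at least 2.29-fold higher, though with the deposited detection p-values another probe was read and the difference was 0.02. Pdgfra, the receptor that mesenchyme of the head carries, was bright in both groups, at 10.19, 10.79 and 10.62 in mesoderm and 10.15, 10.78 and 9.89 in crest, and its 0.26 ± 0.29 did not pass (adjusted p = 0.595).

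Among transcription factors linked to the 5 genes, 15 of 25 were tested, of which 6 had more RNA in mesoderm (3 with any mesoderm array left out and the filter renewed) and 2 in crest, with a median of 0.38. Of the 6, 4 are factors of blood and endothelium. Lmo2 was higher in mesoderm by 4.85 ± 0.22 and Gata2 by 3.30 ± 0.31. Lyl1 and Tal1 were detected on no crest array, with bounds of 14.9-fold and 11.8-fold. The other 2 were Tbx1, a factor of head mesoderm and pharynx (at least 11.9-fold), and Foxc2, a factor of mesenchyme and vessels (by 2.03 ± 0.37, against crest levels at background on all but 1 array). Those higher in crest were Sox10, at -4.94 ± 0.36, and Tfap2a, a crest factor that was at least 4.76-fold higher there and was detected on no mesoderm array. Another Tfap2a probe, read with the deposited detection p-values, differed by 0.03. Twist1, the factor named in the series title, had levels of 8.98, 9.73 and 8.84 in mesoderm, against 9.86, 10.65 and 9.92 in crest, and its -0.96 ± 0.32 did not pass (adjusted p = 0.073). Weighting the arrays made it pass (-0.80, adjusted p = 0.034), as did dropping mesoderm replicate 2 (-1.23, adjusted p = 0.035). Foxc1, which mouse bone marrow needs for its CXCL12-rich niche cells, differed by 0.38 (adjusted p = 0.408).

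**Figure D3:**
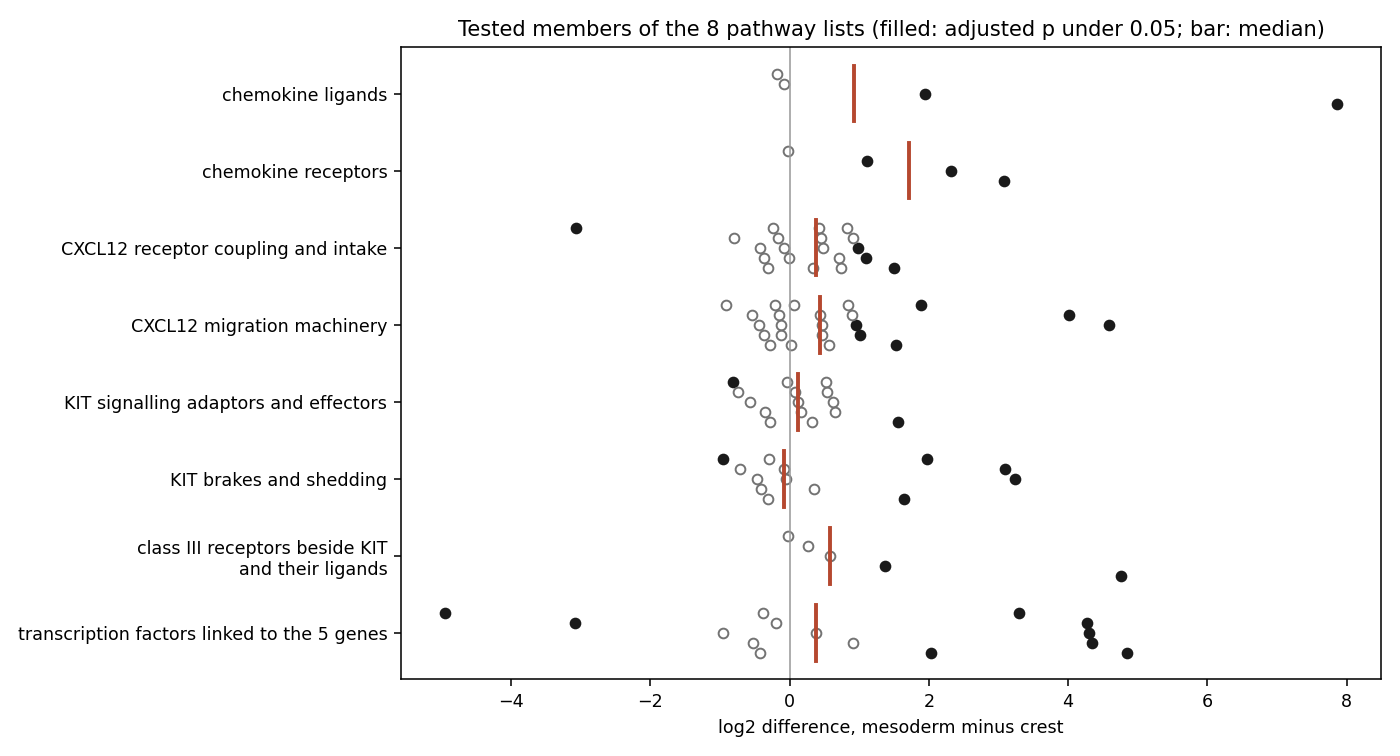
Log2 difference, mesoderm minus crest, of each tested gene of the 8 lists, filled where the adjusted p was under 0.05, with a red bar at the median of each list. Most filled points lie right of 0, and the 3 farthest left are Sox10 and Tfap2a in the bottom row and Rgs16 among the coupling genes.

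Cell type markers moved with these results, and their levels are given as sums of the corrected, normalized signals of the tested markers. Counts of markers stand beside 10.1% of all genes tested that passed toward mesoderm and 8.31% toward crest. Endothelial markers summed to 37872 to 46209 in mesoderm and 1340 to 1990 in crest, and 12 of 13 tested were higher in mesoderm (7 of the 8 detected in both groups). Pecam1 was detected on 3 mesoderm and 0 crest arrays, and Cdh5 on 3 and 1. Blood stem and progenitor markers summed to 2540 to 4376 in mesoderm and 599 to 760 in crest (5 of 9 higher in mesoderm, 3 of them detected on no crest array), with Ptprc detected on 0 arrays. Macrophage and mast cell markers summed to 1142 to 1735 in mesoderm and 78 to 80 in crest. Of the 7 tested, 6 were detected on no crest array and so entered the test through mesoderm alone, and the other 7 listed, the mast cell gene Cpa3 among them, were detected on 0 arrays. Blood and endothelial genes were thus in the same fraction as the higher Cxcl12, Pf4, Vav1, Dok2, Ptpn6 and Pdgfb. Several of these markers stand in the pathway lists too (Cx3cr1, Csf1r and Gata2). Markers of cranial mesoderm and head muscle were also higher there, at 2774 to 4034 in mesoderm and 246 to 432 in crest (6 of 7 higher in mesoderm, 2 of them detected on no crest array). The part of any of these cells in the level of Cxcl12 was not tested.

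The crest fraction, where Cxcr4 was higher, held more RNA of neural and crest markers. Midbrain and dorsal neural tube markers summed to 452 to 660 in mesoderm and 5661 to 9230 in crest. Of 9 tested, 8 were higher in crest (7 of the 8 detected in both groups). Wnt1 was detected on 0 mesoderm arrays and En1, En2, Wnt3a and Sox2 on 1 each, so these met the detection filter through crest. Migratory crest markers summed to 3427 to 4721 in mesoderm and 10665 to 15428 in crest. Of 8 tested, 4 were higher in crest (1 of them detected on no mesoderm array) and 1 was higher in mesoderm. Pigment cell precursor markers, a list that holds Kit and Sox10, summed to 442 to 535 in mesoderm and 4431 to 7109 in crest. Of 5 tested, 2 were higher in crest, Sox10 and Ednrb, which stand in the migratory crest list too. They averaged levels of 11.66 and 10.72 in crest. Pmel and Slc45a2 averaged 5.42 and 5.49 there and did not pass. Slc45a2 was detected on 6 arrays, Pmel on 4, and the pigment genes Dct and Tyr on 0. Germ cell markers summed to 288 to 745 in mesoderm and 1372 to 2030 in crest, with 1 of 4 higher in crest (Tfap2c, by -2.22). Tfap2c made most of the crest sum, at a mean level of 10.58, against 6.63, 6.00 and 5.70 for Alpl, Dnd1 and Pou5f1. Those others were detected on all 6 arrays and did not pass, and Dppa3 was detected on 0. Markers of pharyngeal endoderm and surface ectoderm summed to 269 to 350 in mesoderm and 674 to 865 in crest (2 of 5 higher in crest, both detected on no mesoderm array), with Epcam detected on 0 arrays. The part of any of these cells in the Cxcr4 and Kit levels was not tested.

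Crest replicate 2, which had the lowest Cxcl12 and the highest Kit level of the crest arrays, also stood apart in its markers. Its red cell sum was 131, against 4661 and 2540 in crest replicates 1 and 3, while mesoderm arrays ran from 14535 to 23893 (5 of 8 red cell markers higher in mesoderm, though Hbb-bh1 and Hbb-y passed in 2 of 6 and Hba-a1 in 3 of 6 fits with 1 array left out). Its endothelial sum of 1340 was the lowest of the 6 arrays, and its midbrain sum of 9230 and migratory crest sum of 15428 were the highest. Such sums follow their brightest markers, and single markers did not all move together. Among crest arrays, replicate 2 had the highest Sox10 (12.35), Sox9 (12.08) and En1 (11.44) levels. It had the lowest levels of Tfap2b (10.24), Ednrb (10.53), Ngfr (10.30) and Msx3 (7.62). Of the endothelial markers, Egfl7 was lowest there (9.89) and Plvap highest (5.99). Without this array, Cxcl12 differed by 2.10, or 4.28-fold, and still passed, Cxcr4 by -1.62, and Kit by -0.62.

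**Figure D4:**
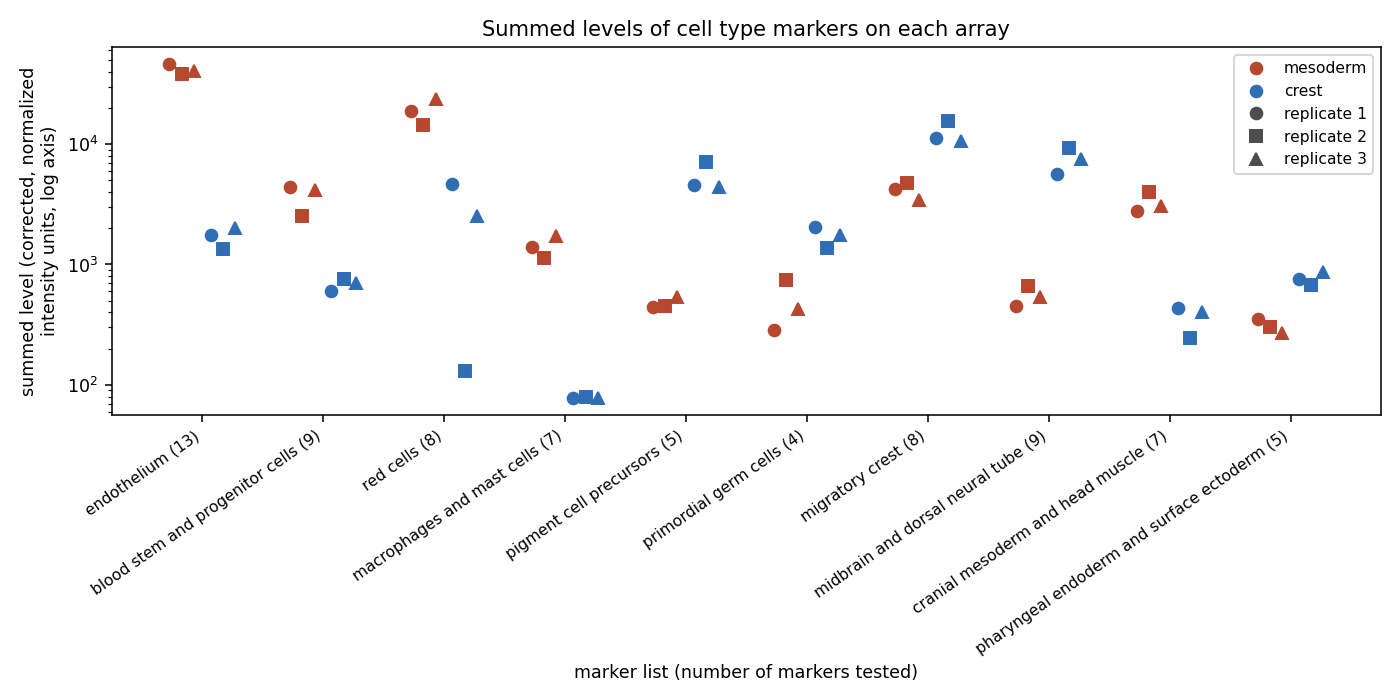
Summed corrected and normalized intensity (log axis) of the tested markers of 10 cell types on each array, mesoderm in red and left of crest in blue, with marker shapes for replicates. Endothelial, blood, macrophage and head muscle sums are higher in mesoderm, neural and crest sums are higher in crest, and the red cell sum of crest replicate 2 is the lowest of its column at 131.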

How the data were processed

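RNA of GFP-positive cells was taken up on micro columns, amplified and labelled with biotin, per the labels' protocols, and hybridized to Illumina mouse whole-genome arrays, 3 mesoderm and 3 crest. The deposited table gives each probe's signal intensity without background subtraction or scaling, and a detection p-value. The deposited series matrix gives the authors' log2 values, which equal the quantile-normalized log2 signals of the same probes to within 0.00571, without background subtraction, and serve as an alternative here. The summary software is not given in the sources used here.

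A detection p must fall as signal rises, yet 27.1% of probes (12273) had a deposited detection p-value that departed by over 0.06 from a running median (window of 101 probes, by rank of signal). Among these were 10 of the 13 probes of the 5 genes, and for 10 of 10 the p stood on another line of the same gene. Both deposited files attach a signal to the same probe, so the p was re-read from the signal ranks of each array. Taking the p as deposited changes which probe of a gene is read, and with it some gene results. The probe numbers rest on the deposited assignment.

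Probe names came from the platform annotation: 34885 probes had 1 gene symbol, 18 several and 10378 none, and only the first kind was used. Signals were corrected by normexp fitted through the detection p-values with an offset of 16, quantile normalized and taken to log2 (R 4.3.3, limma 3.58.1, nec). Probes detected at p under 0.05 on at least 3 arrays were kept, and a gene was its brightest kept probe. limma (lmFit, eBayes, no block) tested 9214 genes, two-sided, with Benjamini-Hochberg adjustment. The number of arrays limits the precision. The limma fit was tested on simulated levels, and the re-reading of detection p-values on p-values moved between lines. The other steps had no such test.

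The 5 genes and all lists were chosen with earlier results of these data known. Named are the 5 genes with their probes, list members that passed (at most 8 a list), up to 3 others a list for their role, and the leading and defining markers. Alternatives were the offset, no correction, the authors' values, median scaling, 2 filters, the deposited p, the mean probe, array weights, the replicate block and each array left out.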

Additional observations from a re-analysis of the deposited data

How the results depend on the processing

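Cxcl12 and Cxcr4 kept their direction in all 22 alternatives, and Cxcr4 its call in all (-0.61 to -1.66). The Cxcr4 probe met the detection filter through crest. The limma adjusted p of Cxcr4 was 0.0393 with no filter, 0.0403 without background correction and 0.0436 without mesoderm replicate 1. Cxcl12 kept its call (2.10 to 2.93 with single arrays left out, adjusted p of 0.00356 to 0.0256) except where the deposited detection p-values set the filter, which read another probe (1.34, adjusted p = 0.139). Kit, at -1.08 and -0.62 to -1.41 with arrays left out, passed without crest replicate 1 (-1.41, adjusted p = 0.0479, or 0.0454 with the genes tested held fixed) and with the replicate number as a block (-1.08, adjusted p = 0.0497). The labels do not say that replicate numbers pair samples, so the main fit had no block. Deviations of same-numbered arrays correlated at 0.118, 0.323 and 0.017, and those of different-numbered arrays at -0.329 to 0.207. These values do not settle whether the numbers pair samples. With the block Itch (adjusted p = 0.0339), Arrb2 (0.0412), Elmo1 (0.0476) and Twist1 (0.0206) also passed. It gave 1046 genes higher in mesoderm and 937 higher in crest. Without the block there were 935 and 766. Median scaling gave 596 and 725, with 45.1% of calls toward mesoderm (55% without it) and a median of all genes of -0.302 (-0.071 without it). Relative to that median, Cxcl12 was at 2.62, Cxcr4 at -1.27 and Kit at -1.08. Array weights gave 1470 genes higher in crest and 9 such genes in the 8 lists. Leaving out 1 array with filter and probes renewed gave 433 to 762 genes higher in mesoderm and 241 to 734 higher in crest (without crest replicate 3 the lowest), and 12 to 25 and 2 to 4 in the 8 lists. Leaving out mesoderm replicate 1 gave the 433 and the 12. With probes and genes held fixed these were 639 to 953, 330 to 798 (430 without mesoderm replicate 1, 499 without crest replicate 2), 22 to 27 and 3 to 4. Leaving out arrays also removes samples from the fit. For 68 further named genes and probes, 1426 values were computed: 1307 kept direction and side of the threshold, 96 no longer passed, 18 newly passed and 5 turned. Pdgfra turned to -0.0176 with median scaling and -0.0631 with the deposited p, where also Vav3 (-0.052), Tfap2a (0.0324) and Src (0.13) turned on another probe. The cause of the other changes was not tested. Signal over background limits Ackr3, Kitl and Cxcr4 in mesoderm.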
